A study of Mus musculus with 4 samples.

Results

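Sertoli cell genes of the secreted, regulatory and lipid export classes were examined in mouse testis RNA from Tslc1+/+ and Tslc1-/- males. The set was named by gene: Clu, Trf, Inha, Inhbb, Amh and Ctsl for secreted proteins, Rhox5, Wt1 and Fshr for regulators and a receptor, and Abca1 for a lipid transporter. Every probe set annotated to exactly 1 of these genes was taken. This gave 11 probe sets for 9 of the 10 genes, out of 12422 probe sets on the array, and Trf, the serum-type iron carrier that Sertoli cells secrete, had no such probe set and was not analysed here. Clu and Abca1 had 2 probe sets each and the other 7 genes had 1.

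The data were 4 Affymetrix Mouse Genome U74A version 2 arrays, 2 of Tslc1+/+ and 2 of Tslc1-/- testis, all from males of strain C57BL/6J at 16 weeks of age. Tslc1, now named Cadm1, encodes an immunoglobulin superfamily adhesion molecule. The genotypes differ by this gene alone as the labels give it, no other allele or agent is named for either group, and how the gene was disrupted is not given in the sources used here. Whether arrays of 1 genotype hold RNA of separate animals or of a pool is not stated in the labels, and a p-value here can speak only for the spread from array to array, part or all of which may be technical.

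Sertoli cells are the somatic cells of the seminiferous tubule that hold germ cells from the spermatogonial stage until spermatids are released. They respond to follicle-stimulating hormone through Fshr and cyclic AMP, and to androgen, and they secrete carrier proteins, proteases and hormones of the transforming growth factor beta family. They also engulf dying germ cells and the residual cytoplasm of spermatids, which loads them with lipid. Cadm1 is known from germ cells, where it takes part in their attachment to Sertoli cells.

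The DNA upstream of 3 of the genes is shown because Rhox5 and, on probe set 94354_at but not on 97198_at, Abca1 had a higher signal on both Tslc1-/- arrays than on both Tslc1+/+ arrays, and Fshr is the receptor of the set. RefSeq promoter windows of build GRCm38.p6 were matched by symbol for 6 of the 9 genes. The stretches run 5′ to 3′ on the gene's strand and end where the annotated gene begins, at chr4:53159989-53160145 for Abca1 (minus strand), chrX:37754358-37754607 for Rhox5 (plus strand) and chr17:89200676-89200925 for Fshr (minus strand). The start site in the RefSeq window of Abca1 lies inside the annotated gene, so its stretch stops short of that site. Capitals mark matches to any of 7 short motifs that lie wholly within the stretch shown.
Abca1: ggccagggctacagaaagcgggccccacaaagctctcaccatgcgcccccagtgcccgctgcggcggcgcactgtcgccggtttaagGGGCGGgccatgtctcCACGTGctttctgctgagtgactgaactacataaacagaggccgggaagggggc
Rhox5: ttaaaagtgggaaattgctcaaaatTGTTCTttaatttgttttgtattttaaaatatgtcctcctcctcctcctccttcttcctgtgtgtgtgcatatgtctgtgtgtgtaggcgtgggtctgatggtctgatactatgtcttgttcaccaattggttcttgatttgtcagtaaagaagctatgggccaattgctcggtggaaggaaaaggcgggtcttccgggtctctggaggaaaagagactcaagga
Fshr: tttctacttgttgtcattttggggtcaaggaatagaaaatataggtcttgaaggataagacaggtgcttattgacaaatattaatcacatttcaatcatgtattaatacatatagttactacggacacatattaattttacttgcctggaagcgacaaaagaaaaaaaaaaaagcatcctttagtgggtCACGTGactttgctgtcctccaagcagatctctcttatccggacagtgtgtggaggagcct
The motifs, searched on both strands of the 250 bases before each window's start site, were the E-box CACGTG, the cyclic AMP response element core TGACG, the steroidogenic factor site AAGGTCA, the androgen receptor element core TGTTCT, the GATA site AGATAA, the GC box GGGCGG and the TATA box TATAAA. The E-box, which reads the same on both strands, was in 3 of the 6 member windows, those of Abca1, Ctsl and Fshr, against 6.02% of 32851 windows of the same length. In Fshr it began 61 bases before the start site of the window. In Abca1 it began 147 bases before that window's start site, which lies past the end of the stretch shown. TGTTCT or its complement was in the windows of Rhox5 and Abca1, against 16.1% of all windows. The GC box was in the Abca1 and Inhbb windows (32.7% of all) and the TATA box in that of Abca1 (12.4% of all). In Abca1 the complement of TGTTCT and the TATA box began 78 and 29 bases before the start site. Both lie within the annotated gene, past the end of the stretch shown. A further GC box of Abca1, 97 bases before the start site, lies only partly in the stretch and has no capitals. The cyclic AMP response element core, the steroidogenic factor site and the GATA site were in none of the 6 member windows, against 17.8%, 4.08% and 9.99% of all. These matches describe letters in the windows. Rhox5 is known to be transcribed from more than 1 promoter, and which of them the window covers was not determined.

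None of the 11 probe sets passed the test of a genotype difference (limma, Benjamini-Hochberg adjusted p from 0.325 to 0.992). Over the whole array 1.08% of 7975 tested probe sets passed, 86 in all (0.238% higher and 0.840% lower in Tslc1-/-), so a count of 0 among 11 is near that background. In simulated data the fit recovered only 5% of log2 changes of 0.5 and 30.8% of those of 1. A count of 0 therefore does not show that these genes were unchanged. At an unadjusted p under 0.05, 1 member probe set stood, of Abca1, where 10.02% of tested probe sets did. The Tslc1-/- arrays lay wholly above or below the Tslc1+/+ arrays on 4 of the 11 probe sets, or 36.4%, against 40.0% of all tested. Of these 4, those of Rhox5, Wt1 and Abca1 were higher in Tslc1-/- (21.5% of all tested were) and that of Ctsl was lower (18.5% of all tested were).

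Signal is the summary that the Affymetrix software gives for a probe set on an arbitrary scale. Probe sets differ in affinity, so the signal of 1 gene does not rank its transcript against another gene's. Changes below are the log2 signal in Tslc1-/- minus that in Tslc1+/+, with 50 added first, so that the change of a dim probe set is understated, and folds are taken from them. In bulk tissue, fewer Sertoli cells and less RNA per Sertoli cell cannot be told apart. In Tslc1+/+ the secreted-protein probe sets had mean signals from 218.1 (Amh) to 17080 (Clu), and those of the regulators and receptor from 519.4 (Wt1) to 1200 (Fshr).

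**Figure D1:**
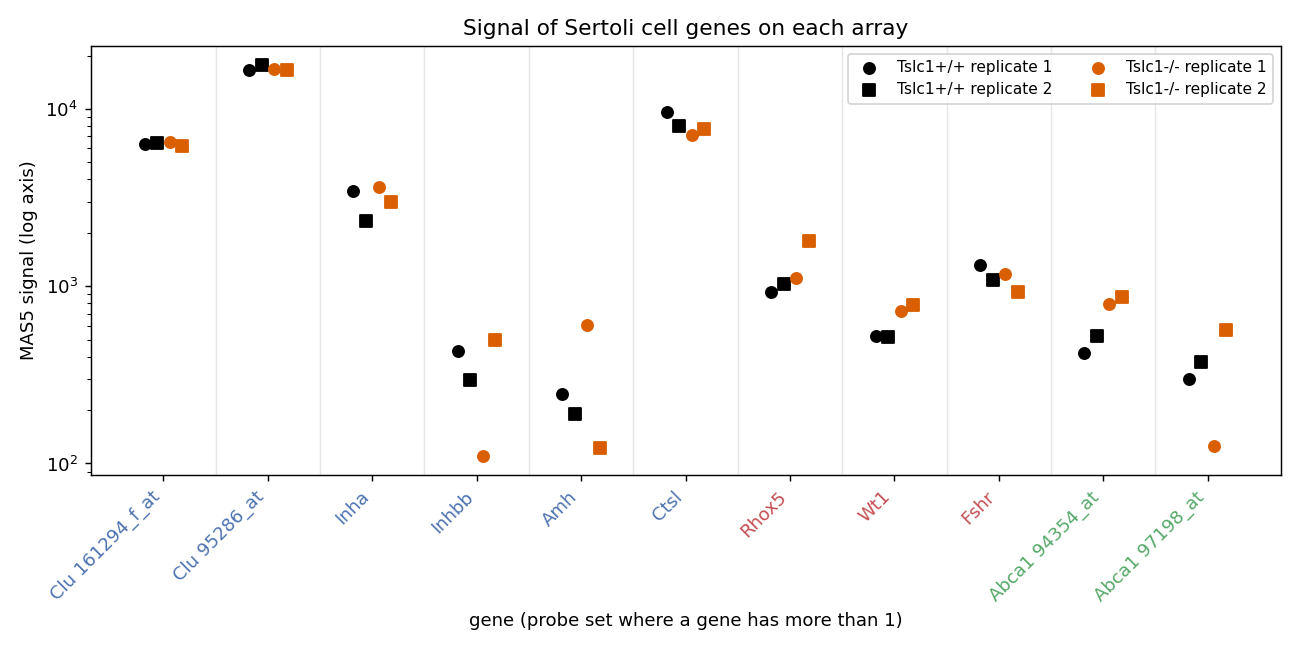
MAS5 signal (log axis) of each of the 11 probe sets on each of the 4 arrays, with blue, red and green names for secreted proteins, regulators and receptor, and lipid transporter. Both Clu probe sets sit at nearly the same height on all arrays, while Inhbb, Amh and the second Abca1 probe set are far apart on the 2 Tslc1-/- arrays.

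Clu encodes clusterin, a secreted chaperone and a major sulfated glycoprotein of Sertoli cells. Its brighter probe set, 95286_at, read 16578 and 17583 on the Tslc1+/+ arrays and 16865 and 16562 on the Tslc1-/- arrays. The genotypes overlapped. The log2 change was -0.03 with a 95% interval (limma, not adjusted for the number of probe sets) from -0.22 to 0.16, or from 0.859-fold to 1.12-fold (limma, adjusted p = 0.942). The other Clu probe set, 161294_f_at, has a name ending by which Affymetrix marks probes that other transcripts may bind. It read 6328 and 6427 in Tslc1+/+ against 6546 and 6172 in Tslc1-/-, with a change of -0.0048 and an interval from -0.24 to 0.23 (limma, adjusted p = 0.992). The 95% intervals of both probe sets stayed within a 1.2-fold change in either direction and were the narrowest of the 11. The sign of so small a change turned with quantile normalization, to 0.090 and 0.035.

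Ctsl encodes cathepsin L, a cysteine protease that Sertoli cells secrete in step with the cycle of the seminiferous epithelium. It read 9561 and 8002 in Tslc1+/+ against 7136 and 7707 in Tslc1-/-. Both Tslc1-/- arrays were below both Tslc1+/+ arrays, by a margin smaller than the gap between the Tslc1+/+ arrays themselves. The means were 8782 ± 1102 and 7421 ± 404 (SD, n = 2), a log2 change of -0.24 with an interval from -0.49 to 0.02 (limma, adjusted p = 0.543).

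Inha encodes the alpha subunit of inhibin, the hormone by which Sertoli cells restrain pituitary secretion of follicle-stimulating hormone. It read 3440 and 2332 in Tslc1+/+ against 3622 and 2970 in Tslc1-/-. The first Tslc1+/+ array lay between the Tslc1-/- arrays and the second below both. The log2 change was 0.21 with an interval from -0.21 to 0.63 (limma, adjusted p = 0.781), and without Tslc1+/+ replicate 2 it was -0.07. The SD of log2 values between the Tslc1+/+ arrays was 0.39, larger than that of 96.2% of the 1147 probe sets with a mean signal from 2000 to 5000.

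Inhbb encodes the beta B subunit, which pairs with the alpha subunit in inhibin B and with itself in activin B. It read 430.7 and 295.4 in Tslc1+/+ against 110.6 and 498.7 in Tslc1-/-. The Tslc1-/- arrays were the lowest and the highest of the 4, 4.51-fold apart. The fitted change was -0.46 with an interval from -1.81 to 0.90 (limma, adjusted p = 0.853), and without Tslc1-/- replicate 1 it was 0.43.

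Amh encodes anti-Müllerian hormone, which immature Sertoli cells make in quantity and adult ones make little of. It read 246.9 and 189.2 in Tslc1+/+ against 606.7 and 122.5 in Tslc1-/-. Here too the Tslc1-/- arrays were the extremes, 4.95-fold apart, but in the opposite order to Inhbb. The fitted change was 0.34 with an interval from -1.18 to 1.86 (limma, adjusted p = 0.915), and without Tslc1-/- replicate 1 it was -0.63. The interval for Amh spans changes from 0.440-fold to 3.62-fold, so these arrays set little limit on it.

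Rhox5, a homeobox gene on the X chromosome formerly called Pem, is an androgen-responsive transcription factor of Sertoli cells. It read 925.4 and 1029 in Tslc1+/+ against 1115 and 1793 in Tslc1-/-. Both Tslc1-/- arrays were above both Tslc1+/+ arrays, one of them narrowly. The means were 977.4 ± 73.5 and 1454 ± 479 (SD, n = 2), a log2 change of 0.51 with an interval from -0.02 to 1.05 (limma, adjusted p = 0.522). Replicate 1 of Tslc1-/- alone gave a change of 0.18 and replicate 2 alone 0.84, so the size of the difference rested on replicate 2.

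Wt1 encodes a zinc finger transcription factor that Sertoli cells need to keep their identity. It read 520.8 and 518.0 in Tslc1+/+ against 723.9 and 787.9 in Tslc1-/-. The genotypes were clearly separate and the arrays of each lay close together. The means were 519.4 ± 1.98 and 755.9 ± 45.3 (SD, n = 2), a 1.41-fold difference, or 0.50 in log2, with an interval from -0.08 to 1.08 (limma, adjusted p = 0.583). The test did not take the small spread of this probe set at face value, since it draws the spread towards that of all probe sets of like signal. Among the 1901 probe sets with a mean signal from 500 to 1000, the median SD of log2 values was 0.20 in Tslc1+/+ and 0.19 in Tslc1-/-, against 0.0050 and 0.08 for Wt1.

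Fshr encodes the receptor for follicle-stimulating hormone, in the testis a Sertoli cell product. It read 1312 and 1087 in Tslc1+/+ against 1178 and 924.8 in Tslc1-/-. The genotypes overlapped. The log2 change was -0.19 with an interval from -0.66 to 0.29, or from 0.632-fold to 1.22-fold (limma, adjusted p = 0.821).

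Abca1 encodes the transporter that loads cholesterol onto apolipoproteins. Its brighter probe set, 94354_at, read 417.8 and 525.4 in Tslc1+/+ against 796.5 and 869.9 in Tslc1-/-. Both Tslc1-/- arrays were well above both Tslc1+/+ arrays. The means were 471.6 ± 76.1 and 833.2 ± 51.9 (SD, n = 2), a 1.70-fold difference and a log2 change of 0.77 with an interval from 0.17 to 1.36 before adjustment (limma, unadjusted p = 0.0169, adjusted p = 0.325). This was the smallest p of the set, and 90.9% of tested probe sets had a smaller change in either direction. The other Abca1 probe set, 97198_at, read 298.9 and 372.9 in Tslc1+/+ against 125.3 and 568.1 in Tslc1-/-, with a fitted change of -0.22 (limma, adjusted p = 0.942). The probe sets of Abca1 thus differed in sign. They were both higher on Tslc1-/- replicate 2, by 0.83 and 0.69, and parted on replicate 1, at 0.71 and -1.13.

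**Figure D2:**
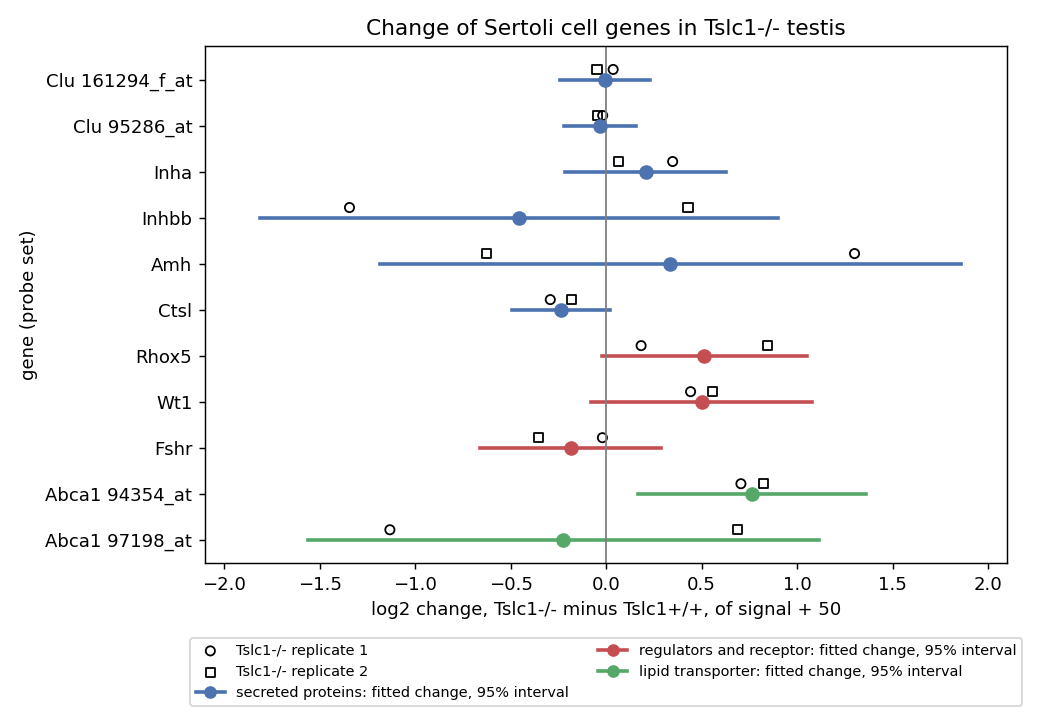
Fitted log2 change (filled points) with its unadjusted 95% interval (lines) for each probe set, and above each the change of either Tslc1-/- array from the Tslc1+/+ mean (open points). All intervals but that of Abca1 94354_at cross 0, and the 3 widest are those of Inhbb, Amh and Abca1 97198_at.

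Set against each other by role, the 5 secreted-protein genes had a median log2 change of -0.03, with 2 positive and 3 negative, and the 3 regulator and receptor genes one of 0.50, with 2 positive and 1 negative. Each gene stood by its brightest probe set. The median over all 9 genes was 0.21, against 0.02 over all 7975 tested probe sets, of which 52.5% were positive. On Tslc1-/- replicate 1 the medians were -0.02 for secreted proteins and 0.18 for regulators and receptor, and on replicate 2 they were -0.04 and 0.56. The regulator median of 0.50 was 0.18 without Tslc1-/- replicate 2. The median over the 9 genes ranged from 0.01 to 0.44 with 1 array left out, the lowest without Tslc1+/+ replicate 2 and the highest without Tslc1+/+ replicate 1, and was 0.07 without Tslc1-/- replicate 1. With 3 to 5 genes a group and no test of the difference, these medians are a description only.

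Over ranges of signal, the interval narrowed as the signal rose. The median distance from the estimate to the end of the interval was 1.15 on the log2 scale for probe sets with a signal from 200 to 500, 0.62 from 500 to 1000, and 0.20 above 10000. Inhbb, Amh and Abca1 97198_at were in the dimmest of these ranges, and their SD between the Tslc1-/- arrays was larger than that of 95.1%, 96.5% and 95.4% of the 2721 probe sets there. Between the Tslc1+/+ arrays the same shares were 48.7%, 34.3% and 31.0%. On Tslc1-/- replicate 1, Inhbb and Abca1 97198_at had their lowest signal and Amh its highest. Rhox5 also had a large spread between the Tslc1-/- arrays, above that of 95.2% of the 1492 probe sets from 1000 to 2000.

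**Figure D3:**
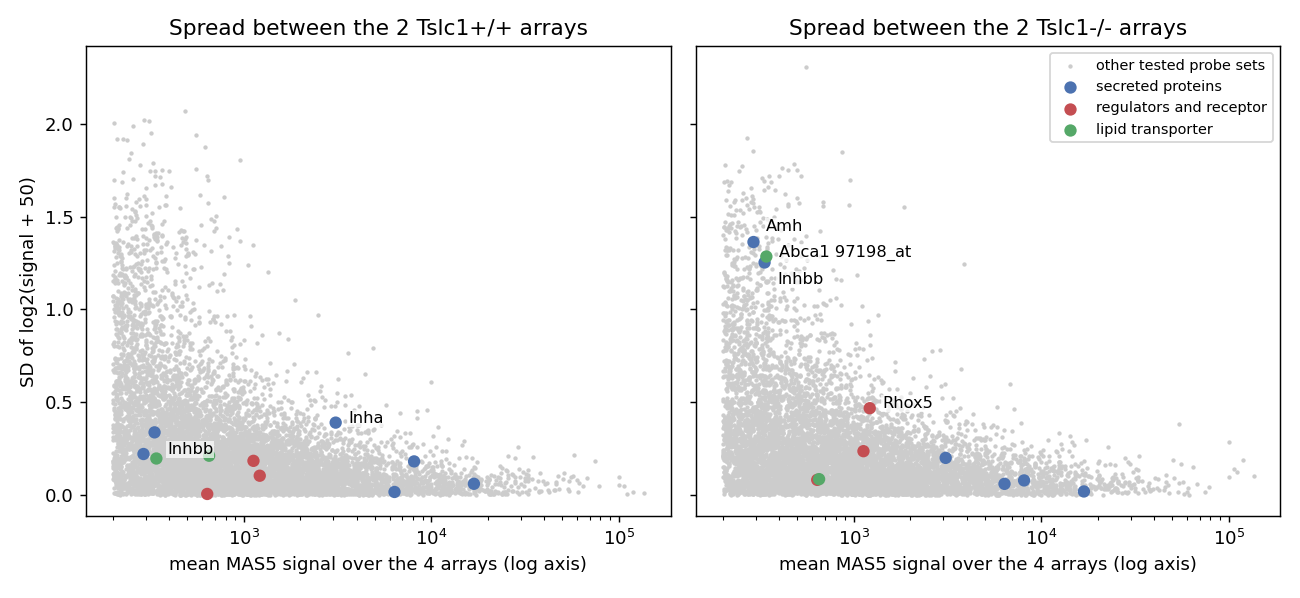
SD of log2(signal + 50) between the 2 arrays of a genotype against mean signal (log axis), for all 7975 tested probe sets (grey) and the member probe sets (coloured by role). In Tslc1-/- the points of Amh, Inhbb and Abca1 97198_at lie near the top of the cloud at their signal, and in Tslc1+/+ Inhbb lies in its middle and the other two lower.

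Of 37 further genes listed as characteristic of Sertoli cells, 24 were tested, and none passed (14 positive, 10 negative, median 0.05). The brightest, Aard, which encodes an alanine and arginine rich domain protein, read 8765 and 8443 in Tslc1+/+ against 8257 and 8012 in Tslc1-/-, a change of -0.08 (limma, adjusted p = 0.834). The smallest p belonged to Krt8, a keratin of simple epithelia, which read 649.8 and 567.3 in Tslc1+/+ against 1512 and 976.6 in Tslc1-/-, a change of 0.95 (limma, adjusted p = 0.162). Krt8 passed in the fit with the replicate number as a block (limma, adjusted p = 0.0295). The labels do not state that these numbers pair arrays, and with the block 239 probe sets passed over the whole array against 86 without it. The Leydig cell marker Cyp17a1 and the endothelial marker Pecam1, both lower in Tslc1-/-, also passed only with the block (limma, adjusted p = 0.0088 and 0.0075).

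Downstream of Fshr, of 19 tested genes of receptor coupling and cyclic AMP signalling 1 fell, none rose and 18 did not pass, with a median of -0.07. Prkar2a, a regulatory subunit of protein kinase A, fell from 13335 and 15255 to 6800 and 5349, a difference of -1.23 ± 0.13 (SE) in log2 signal (limma, adjusted p = 8.76e-04). It is expressed in germ cells as well as somatic cells, and it did not pass when the spread estimate ignored signal (limma, adjusted p = 0.39). The brightest of the list, Gnai2, an inhibitory G protein subunit, had a change of -0.07 (limma, adjusted p = 0.821), which turned to 0.01 with quantile normalization.

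Around the inhibin and anti-Müllerian hormone members, 16 genes of activin, inhibin and anti-Müllerian hormone signalling were tested of 28 listed, and none passed, with a median of -0.20. Smad6, an inhibitory Smad and both the brightest and the one of smallest p, read 3189 and 2692 in Tslc1+/+ against 2075 and 2074 in Tslc1-/-, a change of -0.49 (limma, adjusted p = 0.232). Around Trf, none of 10 tested iron genes passed (median -0.12). The ferritin heavy chain gene Fth1 was at -0.12 (limma, adjusted p = 0.754). The iron importer Slc11a2 was at 0.62 on its brighter probe set and -0.67 on another (limma, adjusted p = 0.263 and 0.413).

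Around Ctsl, none of 14 tested lysosomal cathepsin and cystatin genes passed, with a median of 0.06. Lamp1, a lysosomal membrane protein gene, was at 0.02 and the cathepsin gene Ctsf at 0.45 (limma, adjusted p = 0.969 and 0.45). Around Abca1, none of 17 tested genes of cholesterol efflux and of clearance of dead germ cells passed, with a median of -0.03. Scarb1, a lipoprotein receptor that also binds dying germ cells, was at 0.01 (limma, adjusted p = 0.991). Gas6, a bridging ligand of the receptors that engulf such cells, read 1664 and 1978 in Tslc1+/+ against 1139 and 1111 in Tslc1-/-, a change of -0.67 (limma, adjusted p = 0.161). Beside Wt1, none of 9 tested gonadal transcription regulators passed (median -0.05), with Nr5a1, the steroidogenic factor gene, at -0.05 and Gata4, a zinc finger regulator, at -0.71 (limma, adjusted p = 0.926 and 0.583). Gata4 read 832.6 and 981.1 in Tslc1+/+ against 842.4 and 331.9 in Tslc1-/-, and its change was -0.10 without Tslc1-/- replicate 2.

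**Figure D4:**
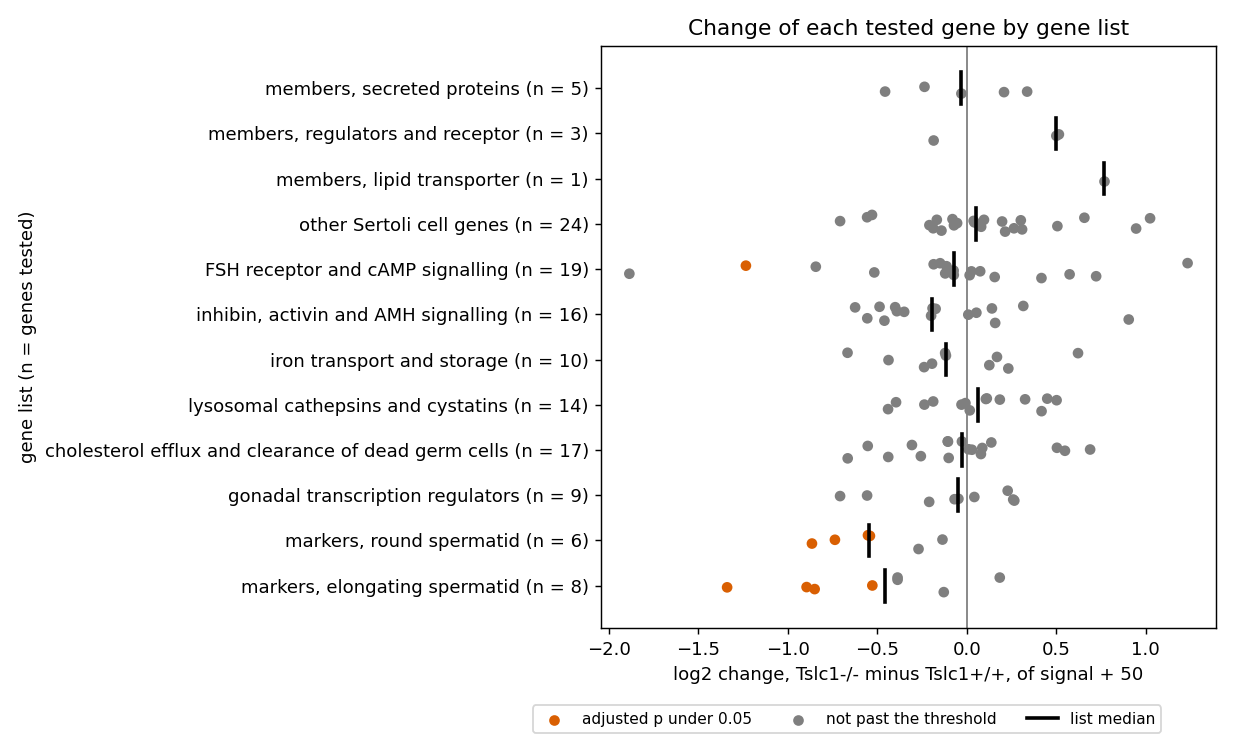
Log2 change of the brightest tested probe set of each gene (points), by list, with the list median (black bar). Orange points passed the limma test. Among the Sertoli cell members and related lists only Prkar2a is orange, while 4 of 6 round and 4 of 8 elongating spermatid markers are. Over the whole array 2 of 2721 probe sets with a signal from 200 to 500 passed, and 39 of 324 above 10000. Lists that differ in signal therefore cannot be compared by these counts alone.

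The arrays' labels were checked on the targeted gene: Cadm1 probe set 93604_f_at read 3960 and 3925 in Tslc1+/+ against 443.5 and 444.9 in Tslc1-/-, a change of -3.01 in log2 signal (limma, adjusted p = 2.31e-05), and 93606_s_at changed by -2.36. Neither passed when the spread estimate ignored signal (limma, adjusted p = 0.143 and 0.275), and a probe set outside the disrupted part of the gene would check nothing. Both 93604_f_at and 93606_s_at have a name ending of probes that other transcripts may bind. Another Cadm1 probe set, 93605_r_at, was below the signal filter and read 345.7 and 243.4 in Tslc1+/+ against 17.2 and 180.4 in Tslc1-/-. For Sertoli cells, 8 of 10 defining markers were tested, most of them members, and their summed signal was 25279 and 25118 in Tslc1+/+ against 26680 and 25604 in Tslc1-/-. Most of each sum was Clu 95286_at, at 16578 and 17583 in Tslc1+/+ against 16865 and 16562 in Tslc1-/-, so the sum says little of the others. Of the 8 log2 changes 6 were positive and 2 negative, with a median of 0.15, and none passed.

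Most markers of spermatids were lower in Tslc1-/-. The summed signal of the 8 tested of 8 elongating spermatid markers went from 427365 and 439918 to 313495 and 293886, and that of 6 of 6 round spermatid markers from 186010 and 193323 to 123808 and 126681. Of the 8 elongating markers 7 had a negative and 1 a positive change (median -0.46), and 4 passed. Tnp2, the brightest, did not pass (limma, adjusted p = 0.065), and Prm2 was at 0.18 (limma, adjusted p = 0.955). All 6 round spermatid markers had a negative change (median -0.55), and 4 passed. Under other scalings of the arrays, quantile normalization and equal array medians, the log2 changes were 0.49 and 0.49 for Wt1, 0.48 and 0.51 for Rhox5, and 0.75 and 0.76 for Abca1 94354_at. Each scaling moved the median over all tested probe sets by only -0.0058. Neither can tell more RNA per Sertoli cell from a larger share of Sertoli cell RNA in the tissue, and this was not tested. Single markers from the lists of other cells passed as well, named here after their values were seen. Of 5 tested spermatocyte markers, Pgk2, a germ cell glycolytic enzyme gene, had a log2 change of -0.78, a fall that passed (limma, adjusted p = 0.0049). Of 7 peritubular myoid markers, the smooth muscle actin gene Actg2 changed by -0.57 in log2 signal (limma, adjusted p = 0.019). Of 5 endothelial markers Ly6e rose by 0.86 (limma, adjusted p = 0.034) while Pecam1 changed by -1.92 (limma, adjusted p = 0.069). With the named genes included, 3 spermatocyte markers had a positive and 2 a negative change (median 0.005). For myoid markers it was 2 and 5 (median -0.18), and for endothelial markers 3 and 2 (median 0.11). The probe sets of Actg2 and Ly6e have the name ending of probes that other transcripts may bind. Whether Actg2 reads myoid cells here, and Pgk2 spermatocytes rather than spermatids, was not tested. All 3 erythrocyte markers had groups that did not overlap, 2 higher and 1 lower in Tslc1-/-, and none passed. Among all tested probe sets, 40.0% had groups that did not overlap, 21.5% higher and 18.5% lower in Tslc1-/-. Of the 12 alternatives, Pgk2 passed under 8 and Actg2 and Ly6e under 6 each, and none of these genes passed without the intensity trend (limma, adjusted p = 0.469 to 0.545). With 1 array left out, Pgk2 passed without Tslc1-/- replicate 2 (limma, adjusted p = 0.048) and otherwise lay at adjusted p = 0.053 to 0.077, Ly6e passed without Tslc1+/+ replicate 1 (limma, adjusted p = 0.010) and otherwise lay at 0.153 to 0.250, and Actg2 lay at 0.091 to 0.183 without any one array. The part of these cells in the member values was not tested.

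Cells other than Sertoli cells also express some members. Macrophage markers, 8 tested of 10, summed to 5916 and 5436 in Tslc1+/+ against 7232 and 5326 in Tslc1-/-, and Leydig cell markers, 7 of 8, to 7721 and 7835 and to 6147 and 6855. Of those 7, 4 had a positive and 3 a negative log2 change, with a median of 0.10, and the mean signal of the brightest, the steroidogenic enzyme gene Cyp17a1, went from 4951 to 3325 (limma, adjusted p = 0.127). Of 8 epididymis markers Adam7 alone was tested. Their part in Abca1, Ctsl, Inha and Clu was not tested.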

How the data were processed

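The file holds linear intensity of each probe set, deposited as signals that the authors calculated with Microarray Suite 5.0 (MAS5), with global scaling of all arrays to 1000, per the labels' series design text. Of 12488 probe sets, 66 controls were left out, and the platform annotation gave 1 gene for 10833, several for 396 and none for 1193, with symbols updated by Entrez identifier through RefSeq (GRCm38.p6) for 10817. Probe sets with a mean signal of at least 200 were tested (7975, all 11 members among them) as log2(signal + 50), with no further normalization, in limma 3.58.1 (R 4.3.3) with an intensity trend, two-sided, Benjamini-Hochberg adjusted over all of them at 0.05. The fit was tested on simulated data, in 20 simulations. It recovered 5% of log2 changes of 0.5, 30.8% of those of 1, 68.2% of those of 2 and 81.3% of those of 4. The false share was 6.13%. With 2 arrays a genotype, the smallest two-sided p of an exact permutation test is 0.333. The number of arrays limits the precision.

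Genes in lists stand by their brightest probe set. Fth1 and Ly6e had 2 tested probe sets each and Gnai2 and Nr5a1 had 3, of which only the brightest is given. That of Gnai2 has the name ending of probes that other transcripts may bind. All members were named, and from each other list the gene with the smallest p and the brightest. The members and lists were chosen with earlier results of these data known. Alternatives were pseudocounts of 20 and 100, no signal filter or one of 500, quantile normalization, equal array medians, no trend, a replicate block, and each array left out.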

Additional observations from a re-analysis of the deposited data

How the results depend on the processing

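The number of member probe sets that passed was 0 under each of the 12 alternatives run (limma), although the filter of 500 left the dim ones untested. At an unadjusted p under 0.05 it was 1 in the reported fit and under 8 of the alternatives, 3 with the replicate block, and 2 without the trend, without Tslc1+/+ replicate 2 and without Tslc1-/- replicate 1. The number over all probe sets, 86 as reported, was 0 without the intensity trend (638 at an unadjusted p under 0.05), 239 with the replicate block and 37 to 43 with 1 array left out. Without the trend Cadm1 and Prkar2a did not pass (log2 changes of -3.01, -2.36 and -1.23). The replicate numbers are not stated to pair samples, and the difference of replicate 1 from replicate 2 correlated between the genotypes with r = -0.0012 across probe sets. The median over member genes ran from 0.012 to 0.44 with 1 array left out, that over regulators and receptor from 0.18 to 0.56, and that over secreted proteins from -0.073 to -0.018. The last was 0.090 with quantile normalization.

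Of 129 refits of single member probe sets, 120 kept their direction and side of the threshold and 9 changed sign. With quantile normalization Clu 95286_at gave 0.090, Clu 161294_f_at 0.035 and Gnai2 0.0092. With 1 array left out, the range was -0.073 to 0.012 for Clu 95286_at, -0.047 to 0.037 for Clu 161294_f_at, -0.068 to 0.48 for Inha, -1.34 to 0.43 for Inhbb, -0.63 to 1.30 for Amh and -1.13 to 0.69 for Abca1 97198_at. The same range was -0.021 to 0.053 for Lamp1, -0.029 to 0.047 for Scarb1 and -0.13 to 0.041 for Nr5a1. The sign turned without Tslc1-/- replicate 1 for Inhbb, Amh, Abca1 97198_at and Nr5a1, without Tslc1+/+ replicate 2 for Inha and both Clu probe sets, also without Tslc1-/- replicate 2 for Clu 161294_f_at, and without either replicate 1 for Lamp1 and Scarb1. The cause of these changes was not tested.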

Other observations

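Genes of lipid handling beside Abca1 did not share a direction. These were chosen after their values were seen, and none passed. Abcg1, a cholesterol exporter of another subfamily, read 1461 and 1425 in Tslc1+/+ against 995.3 and 939.5 in Tslc1-/-, a log2 change of -0.55 (limma, adjusted p = 0.296). Rxra, a partner of the sterol-sensing nuclear receptors, was at 0.50 on 1 probe set and 0.22 on another (limma, adjusted p = 0.291 and 0.789). Pltp, a phospholipid transfer protein gene, read 867.4 and 674.7 in Tslc1+/+ against 1153 and 1132 in Tslc1-/-, a change of 0.55 (limma, adjusted p = 0.426). Among other Sertoli cell genes, Sparc, a secreted matrix protein gene, read 2087 and 2502 in Tslc1+/+ against 3131 and 3408 in Tslc1-/-, a change of 0.51 (limma, adjusted p = 0.203). Sparc too was chosen after its values were seen. In the same list Vim read 373.2 and 320.2 in Tslc1+/+ against 202.2 and 247.9 in Tslc1-/-, a change of -0.53 (limma, adjusted p = 0.781). Of its 24 tested genes, 4 lay wholly higher and 2 wholly lower in Tslc1-/-, against 21.5% and 18.5% of all tested probe sets.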
